A study of Mus musculus with 6 samples.

Results

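Regions of open chromatin at the Zfp genes of the mouse are described here. A region was a member when it overlapped the bounds, extended by 10 kb on either side, of a protein-coding RefSeq gene whose symbol is Zfp followed by a digit. Of 193148 regions in the series 2035 were members, or 1.05%, and 2030 of them passed the filter on low counts and were tested. The family was chosen from the knockdown against control contrast itself: regions at Zfp37, Zfp958 and Zfp280d were among the largest gains of the whole series. Values from that contrast are therefore given as a description of the members, with no test of the family.

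ATAC-seq, an assay of how readily a transposase can cut into chromatin, was used to ask how lowering Ogt alters chromatin in neurons that make dopamine. They came from the ventral tegmental area (VTA), a midbrain region of reward. Ogt encodes the enzyme that places O-GlcNAc on nuclear and cytoplasmic proteins. There were 3 libraries from Ogtflox+/Y mice, called knockdown here, and 3 from Ogtflox-/Y mice, called control. Both groups carried 2 vectors in the VTA, AAV-TH-Cre, which supplies the recombinase, and AAV-DIO-H2B-EGFP, which marks nuclei, and the nuclei carrying EGFP were sorted. Recombination thus depends on a vector named for the TH gene, in whichever cells it is active. The labels give no age and do not say that the libraries came from separate animals, so the p-values behind each call measure the spread between libraries, which may be technical. Knockdown replicate 1 has a title that names the control genotype, and its genotype label was followed. The labels' protocol describes a DNA library kit and no transposition step.

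Most Zfp genes encode C2H2 zinc finger proteins, in which small zinc-held loops each read a few bases of DNA. A large share also carries a KRAB domain, which recruits Trim28 and through it the histone methyltransferase Setdb1, and these proteins are known for silencing retroelements. Many of the KRAB genes arose by tandem duplication and still lie side by side in clusters, with near-identical copies. The symbol also covers proteins of other kinds, such as the Zfp36 family of RNA-binding proteins.

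The sequences that matter most to the results below are promoters, read from the RefSeq table of build GRCm38.p6, which matched 331 of the 397 Zfp genes with 401 start windows. All words of 8 bases were ranked by how over-represented they were in the promoters of clustered Zfp genes, using sequence alone but after the contrast had been seen, and the first of 389 words found in at least 10 such promoters was ACTACATT, or AATGTAGT on the other strand. It stood in 36 of 217 clustered Zfp windows (16.6%), in 5 of 184 windows of single Zfp genes (2.72%) and in 268 of 21254 windows of all coding genes (1.26%). Since the word was picked for this excess, the excess supports nothing. In 32 of the 41 Zfp windows that held it the next letters were TCCCA. Letters of this kind, ACTACA followed after a short gap by TCCCA, are known from the sequence that the zinc finger factor Zfp143 recognises. A match is a description of letters and not a bound site. The first 6 sequences below belong to the regions that fell most over such promoters and the last 4 to those with the highest fold changes, leaving out Zfp14, whose stretch would run past the gene start. Each is written in the direction in which the word reads, with the word in capitals.
Zfp72: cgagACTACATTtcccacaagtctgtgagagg
Zfp111: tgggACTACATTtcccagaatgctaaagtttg
Zfp418: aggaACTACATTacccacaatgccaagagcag
Zfp773: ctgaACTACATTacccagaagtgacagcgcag
Zfp108: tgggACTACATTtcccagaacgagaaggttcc
Zfp953: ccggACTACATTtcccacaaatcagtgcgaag
Zfp566: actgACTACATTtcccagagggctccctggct
Zfp874a: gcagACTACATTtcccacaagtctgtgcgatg
Zfp780b: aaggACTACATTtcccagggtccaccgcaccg
Zfp874b: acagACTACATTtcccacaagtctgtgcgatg

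In that order they lie at chr13:74390867-74390898 (plus strand), chr7:24208198-24208229 (plus), chr7:7171250-7171281 (plus), chr7:7136790-7136821 (minus), chr7:24254654-24254685 (minus), chr13:67360632-67360663 (plus), chr7:30090559-30090590 (minus), chr13:67451642-67451673 (plus), chr7:27979191-27979222 (minus) and chr13:67484273-67484304 (plus). Those of Zfp874a and Zfp874b differ only in their first letter, an example of the near-identical copies among these genes. Values of such copies are uncertain, because the handling of reads that fit several places is not stated.

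The word also meets a second pattern. TTCNNNGAA, which reads the same on both strands, is the pattern known for STAT factors, and the series title names STAT3. In Zfp111 and Zfp108 above, the last T of the word and the 8 bases after it spell TTCNNNGAA, while in Zfp72 and Zfp566 they do not. Of 60 Zfp windows with TTCNNNGAA, 12 had it joined to the word in this way. TTCNNNGAA stood in 21.2% of clustered Zfp windows, 7.61% of single ones and 7.69% of all coding windows.

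The 250 bases before the start of Zfp111 (chr7:24208150-24208399, minus strand) show the word in its setting. It is in capitals here and reads AATGTAGT because the promoter is written in the direction of the gene.
Zfp111 promoter: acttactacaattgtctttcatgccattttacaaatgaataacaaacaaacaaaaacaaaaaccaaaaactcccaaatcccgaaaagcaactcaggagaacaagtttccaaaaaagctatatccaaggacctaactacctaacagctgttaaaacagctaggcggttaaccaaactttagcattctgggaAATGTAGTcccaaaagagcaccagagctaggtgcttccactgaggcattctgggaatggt

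Libraries held 12698758 to 24440507 reads in regions, and these made up 36.6% to 38.2% of all reads in controls and 31.0% to 37.0% in knockdowns. Values are in CPM, the standard depth-scaled read count, taken here over reads in tested regions with TMM scaling, a level that can be compared between libraries. All 15 dopaminergic marker genes searched had a region, with summed levels of 999 to 1440 CPM in controls and 1080 to 1190 in knockdowns. Of 162 tested dopaminergic marker regions 25 were called higher and 6 lower, beside 15.4% and 12.7% of all regions. Summed levels of astrocyte, GABAergic and glutamatergic markers did not overlap between the groups, and those of the other lists did. Of 75 astrocyte marker regions 26 were called higher and 5 lower, with summed levels of 361 to 393 CPM in controls and 402 to 503 in knockdowns. Of 45 GABAergic marker regions 19 were higher and 0 lower, with 173 to 222 CPM against 257 to 309. Of 228 regions of general neuronal markers 15 were higher and 40 lower, with 1140 to 1280 CPM against 1070 to 1250, and of 61 oligodendrocyte regions 18 were higher and 10 lower, with 307 to 348 CPM against 296 to 410. Summed levels of microglial (111 to 128 against 114 to 130 CPM) and endothelial (59.5 to 62.8 against 60.8 to 63.7) regions overlapped, and those of glutamatergic regions were 154 to 181 against 125 to 151. The part of these cells in the values at Zfp genes was not tested, and in sorted bulk nuclei fewer cells of a type cannot be told apart from less signal per cell. Ogt had 8 tested regions, 4 called higher and 2 lower, and the files hold no measure of its RNA or protein.

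The members belonged to 397 Zfp genes. Of these 228 lay in 36 clusters, meaning 3 or more consecutive Zfp genes within 500 kb, and 169 were single. A region reached 356 of the genes, and 41 had none (25 clustered and 16 single). Clustered genes that were reached had a median of 3 regions and single genes a median of 6, with up to 67 at Zfp385b. Among the 2035 regions 532 were at a gene end, within 1000 bp of either bound, 1076 in a gene body and 427 in the flank beyond. Most regions (1897) were 401 bp wide. Gene ends were the most open class, with a median control level of 15.1 CPM against 2.41 in bodies and 4.32 in flanks. For 148 regions more than 1 Zfp gene lay within 10 kb, and each was counted once, at the nearest.

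Regions at Zfp genes were more often called higher than lower in knockdown. A region was called when its adjusted p in edgeR's quasi-likelihood test over all regions was under 0.05. Of 2030 tested members 419 were called higher, against a share of 15.4% over all regions, and 227 were called lower, against 12.7%. That is 20.6% and 11.2% of the members, and 64.9% of their calls were gains. The median log2 fold change was 0.08 at members and -0.0063 over all regions. Members were also more open, with a median control level of 3.59 CPM against 2.41 over all regions. Of the members 523 were among the most accessible 10% of all regions, where 39.9% of all regions were higher and 4.53% lower. The part of openness in the members' shares was not tested. A higher region was nearest to 213 genes and a lower one to 141, with both at 82 genes and neither at 83. The balance depended on the scaling: gains were 54.9% of the members' calls with loess curves, 49.3% when scaled to reads in regions and 26.9% when scaled to library totals, settings that put the median of all regions at -0.0087, -0.12 and -0.27. Without knockdown replicate 1, whose title and genotype label differ, 376 members were higher and 175 lower. With that library counted as a control, as its title has it, edgeR called 0 members higher and 0 lower, and 289 had an unadjusted p under 0.05, against 908 when grouped by genotype. The losses also depended on single controls, with 139 members lower without control replicate 1 and 133 without control replicate 2.

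The 10 kb rule set a threshold, and regions on either side of it had these counts. Of 49 regions 9 to 10 kb from a Zfp gene 11 were higher (22.4%) and 7 lower (14.3%). Of 43 regions 10 to 11 kb away, just outside, 8 were higher (18.6%) and 10 lower (23.3%). All regions had 15.4% and 12.7%.

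Gene ends of Zfp genes gained openness at about the rate of other genes and lost it more often. Of 532 gene-end regions 162 were called higher (30.5%), with 32.9% for gene ends of all coding genes, and 54 were called lower (10.2%), with 6.92% for all. Their median log2 fold change was 0.20, and 0.22 for all. Where the strand was known, 374 regions lay at gene starts, of which 116 were higher (31.0%) and 31 lower (8.29%). Starts of all coding genes were higher in 38.2% and lower in 4.77%. Far ends of the genes gave 9 higher (16.1%) and 9 lower (16.1%) of 56, beside 13.9% and 14.9% for far ends of all coding genes. With loess curves the gene ends turned from mostly higher to an even split, 108 higher and 109 lower, and gene ends of all coding genes then had 18.8% higher and 11.4% lower.

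Gene bodies of Zfp genes differed from those of other genes in the opposite way, with more gains. Of 1072 tested body regions 173 were higher (16.1%), against 11.9% of body regions of all coding genes, and 118 were lower (11%), against 13.4%. In flanks 84 of 426 were higher (19.7%), against 14.7% for all, and 55 were lower (12.9%), against 17.9%. Here and in bodies the sets compared are unlike, since Zfp regions were placed by Zfp genes alone and the others by every coding gene. Of the Zfp flank regions 85 lay at the end of another coding gene and 90 inside one, places left out of the flanks for all. Those inside another coding gene were higher in 25 of 90 (27.8%). Outside any other coding gene 37 of 251 were higher (14.7%) and 39 lower (15.5%). Losses fell to 70 in bodies and 33 in flanks without control replicate 1 and to 64 and 33 without control replicate 2, which also left 112 gains in bodies. None of these differences between classes was tested.

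**Figure D1:**
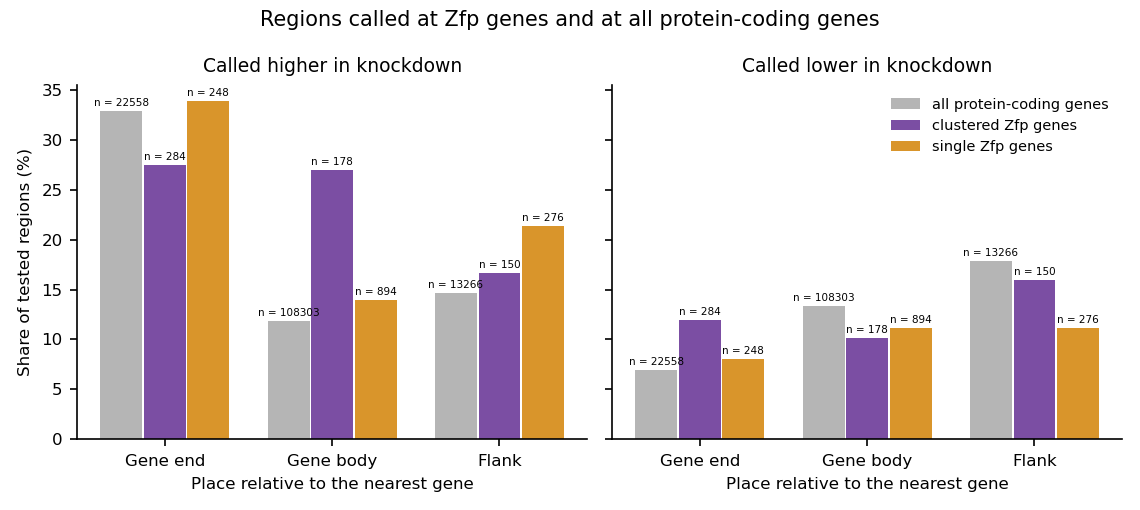
Share of tested regions (y axis, %) called higher (left) and lower (right) in knockdown by place (x axis), for all protein-coding genes (grey), clustered Zfp genes (purple) and single Zfp genes (orange), with the number of tested regions above each bar. Bodies of clustered genes were higher in 27.0%, and ends of clustered genes were lower in 12%, against 11.9% and 6.92% for all coding genes. Places of Zfp regions were set by Zfp genes alone, and those in grey by every coding gene.

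Clustered and single genes parted in 2 places. In gene bodies 48 of 178 regions of clustered genes were higher (27.0%) and 125 of 894 of single genes (14.0%). At gene starts 25 of 214 regions of clustered genes were lower (11.7%), and 6 of 160 of single genes (3.75%), while 60 and 56 were higher. Over all places clustered genes had 151 higher and 76 lower of 612, median log2 fold change 0.13, and single genes 268 higher and 151 lower of 1418, median 0.06. Without control replicate 2 clustered genes had 96 higher regions and single genes 82 lower ones, and without control replicate 1 single genes had 85 lower. In the clustered bodies the gains were the majority of calls under every scaling except library totals, with 44 higher and 23 lower by loess curves and 26 higher and 36 lower by library totals.

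Agreement of the 3 knockdown libraries at called members was close to that at called regions in general, and being called favours it. In 398 of the 419 higher regions (95.0%) every knockdown library lay above every control library, and in 222 of the 227 lower ones (97.8%) every one lay below; the shares among all called regions were 90.0% and 96.3%. Over all tested members, called or not, 586 were fully above (28.9%), against 21.0% of all regions, and 406 fully below (20%), against 21.2%. The median difference from the control mean, in log2(CPM + a small prior), was 0.08 in replicate 1, 0.05 in replicate 2 and 0.10 in replicate 3. Replicate 2 was the knockdown library nearest to control in 210 of the 419 higher regions (50.1%), as in 49.4% of all higher regions, and taken alone against the controls it gave 181 higher and 102 lower members.

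The largest gains were regions almost closed in control. A region inside Zfp37 (chromosome 4, 62200155 to 62200555) had 0.152, 0.156 and 0.237 CPM in the controls and 4.31, 3.88 and 4.92 in the knockdowns, from 11 and 180 reads in all, a log2 fold change of 4.52 (SE 0.33). A region inside Zfp958 (chromosome 8, 4627293 to 4627693) went from 0.076, 0.117 and 0.237 to 2.72, 3.96 and 3.85 CPM, a change of 4.48 (SE 0.38) from 9 and 144 reads. A region 9327 bp before the start of Zfp280d (chromosome 9, 72264891 to 72265291) went from 0.228, 0.273 and 0.0947 to 4.39, 3.65 and 5.58 CPM, 4.46 (SE 0.35). In controls these levels stood near the worth of 3 reads, which is 0.117 to 0.238 CPM depending on the library, and in no case did the groups overlap.

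At the same 3 genes the starts changed far less. The most open region of Zfp37, 371 bp inside its start, had 31.8, 28.7 and 26.6 CPM in controls and 33.6, 31.2 and 31.8 in knockdowns, which overlapped and was not called. The start of Zfp958 went from 34.8, 29.7 and 30.4 to 43.5, 43.2 and 47.5 CPM, a log2 fold change of 0.50 (SE 0.10). Zfp280d, which has a second strong gain 4082 bp before its start (0.532, 0.977 and 0.994 against 4.91, 4.36 and 5.72 CPM), went from 21.0, 26.0 and 25.7 to 43.6, 33.8 and 38.3 CPM at the region beside its start, 0.66 (SE 0.11). With all their regions counted, these genes had 9 higher and 0 lower of 14, beside 15.4% and 12.7% of all regions. The gains for which these genes were chosen are among the 9, so the count supports nothing.

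The next 7 gains ranged from 2.59 to 2.85 on the log2 scale. They included a flank region of Zfp189 that lies in the body of Mrpl50 (0.38, 0.703 and 0.284 against 3.4, 4.12 and 2.86 CPM); Zfp189 is a KRAB gene known for a role in stress resilience in the prefrontal cortex. The strongest in level was inside Zfp536, a repressor of neuronal differentiation, with 2.13, 1.99 and 1.66 CPM in controls and 12.6, 9.75 and 12.6 in knockdowns. Gains of this size were also called in the flanks of Zfp384, where the region lies in the body of Ing4, and Zfp322a. Others were inside Zfp865, Zfp606 and Zfp407.

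The largest losses were smaller and also came from weakly open regions. A region inside Zfp808 fell from 1.14, 1.95 and 1.04 CPM to 0.378, 0.159 and 0.332, a log2 fold change of -2.24 (SE 0.45). Inside Zfp469, whose human counterpart is known from brittle cornea syndrome, a region fell from 2.81, 3.28 and 2.89 to 0.832, 0.634 and 0.731 CPM, -2.03 (SE 0.28). A region deep in Zfp423, a regulator of cerebellar and olfactory development, fell from 6.23, 5.55 and 5.78 to 1.21, 1.03 and 2.99 CPM, -1.71 (SE 0.29), with knockdown replicate 3 the nearest to control. Losses were also called in the flanks of Zfp235, Zfp697, Zfp422, Zfp473 and Zfp511, in the body of Zfp407 and at the far end of Zfp185, which encodes a LIM domain protein. The losses near Zfp235 and Zfp697 rest on 10 and 9 knockdown reads, and with replicate 2 alone neither was called, nor was Zfp697 without control replicate 2.

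**Figure D2:**
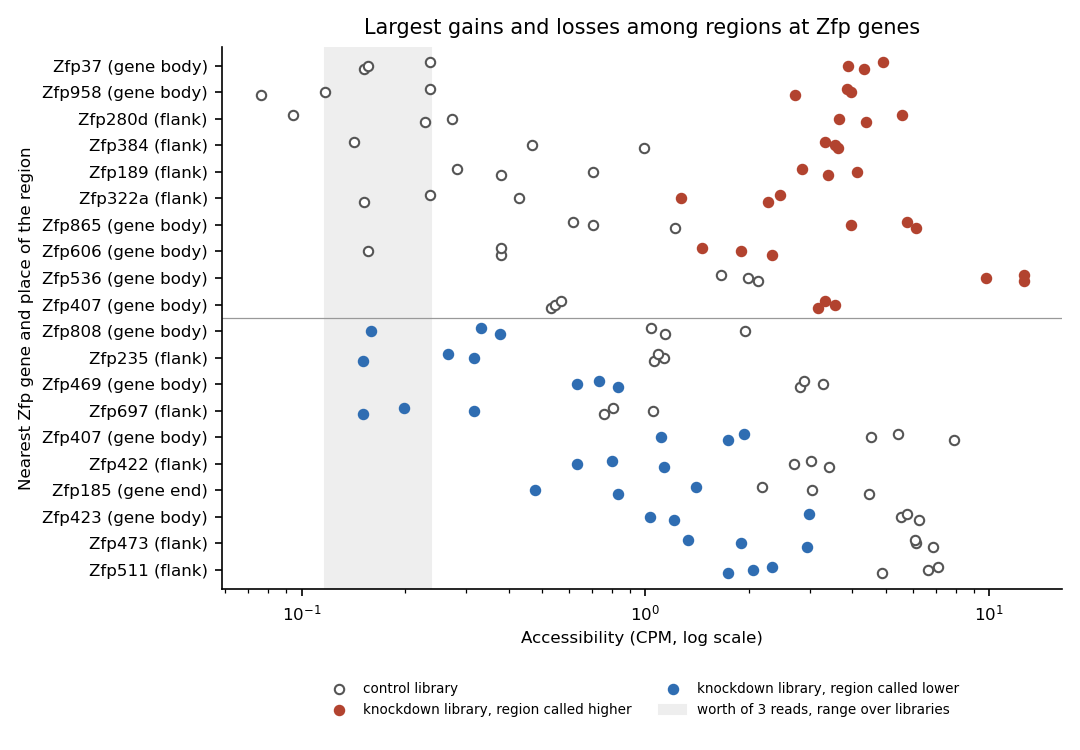
Level of the 10 largest gains (top) and 10 largest losses (bottom) among members called at adjusted p under 0.05, in CPM on a log axis, with each library as a point (open, control; red or blue, knockdown) and the worth of 3 reads shaded. No knockdown point lies among the control points of its own region, and the control points of the first 3 gains lie in or beside the shaded band.

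The most open gene ends changed little. The 10 with the highest mean level, between 44.0 and 83.3 CPM in single libraries, included 5 called higher and 0 called lower. At the start of Zfp511, which Tubgcp2 shares, levels were 62.2, 54.5 and 53.7 CPM in controls and 83.3, 68.1 and 79.3 in knockdowns, 0.44 (SE 0.10). At the start of Zfp78 they were 69.3, 56.7 and 64.4 against 63.7, 63.8 and 67.8 CPM and overlapped. The other called ones were at Zfp687, Zfp869, Zfp771 and Zfp706. Of these 5 gains none was called with loess curves, under which Zfp687 turned slightly negative (-0.05) and Zfp78, Zfp219 and Zfp277 were called lower. The calls at Zfp687 and Zfp869 were also lost without control replicate 2, control replicate 3 or knockdown replicate 3, that at Zfp687 without knockdown replicate 1 as well, and that at Zfp771 without control replicate 2. Among the most accessible 10% of all regions, 168 of 523 members were higher (32.1%) and 51 lower (9.75%), while all such regions had 39.9% and 4.53%.

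Regions over Zfp promoters with the word ACTACATT were more often lower, and less often higher, than those without it. Of 34 regions over such Zfp promoters 1 was called higher and 14 lower (41.2%), with a median log2 fold change of -0.21. Of 230 regions over Zfp promoters without it 70 were higher (30.4%) and 19 lower (8.26%), with a median of 0.19. The 2 sets differ in their share of clustered genes. With the word, 30 regions were at clustered genes, 1 higher and 13 lower, and 4 at single genes, 0 higher and 1 lower. Without it, clustered genes had 32 higher (25.8%) and 15 lower (12.1%) of 124. Single genes without it had 38 higher (35.8%) and 4 lower (3.77%) of 106. The part of clustering was not tested. In 17 of the 34 every knockdown library lay below every control library, and in 3 every one lay above. Without the word this held for 30 and 102 of the 230, and over all tested regions for 21.2% and 21.0%. The medians of the single knockdown libraries were -0.16, -0.31 and -0.25. A region was taken for a promoter when at least 150 bp of it overlapped the window.

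Promoters outside the family also had fewer gains and more losses with the word than without it. Of 127 regions over other coding promoters with the word 19 were higher (15.0%) and 26 lower (20.5%), and of 9191 without it 3497 were higher (38.0%) and 404 lower (4.4%). Median control levels were 23.3 CPM for Zfp promoters with the word and 23.4 without it. For other coding promoters they were 29.9 CPM with the word and 22.9 without it. Among Zfp promoters of 20 to 40 CPM with the word 0 of 19 were higher and 6 lower. Without it 42 of 111 were higher and 5 lower. Under 20 CPM the counts were 0 and 7 of 13 with the word and 19 and 13 of 90 without it. Over 40 CPM they were 1 and 1 of 2 with it and 9 and 1 of 29 without it. The part of openness was not tested. Promoters with the word held fewer CG pairs in the Zfp family (median 10 against 15) but not elsewhere (14 against 13); the part of base composition was not tested.

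Counts for the STAT pattern depended on where it stood. Zfp promoters with the word joined to TTCNNNGAA had 0 higher and 5 lower of 10, those with the word alone 1 and 9 of 24, those with TTCNNNGAA alone 5 and 8 of 32, and those with neither 65 and 11 of 198. The balance for TTCNNNGAA alone rested on control replicate 1, without which it was 9 higher to 5 lower. When control replicate 2 was left out it was 2 to 4. Over other coding promoters TTCNNNGAA alone gave 168 higher and 41 lower of 554, that is 30.3% and 7.4%, against 38.5% and 4.2% with neither. None of these shares was tested, and letters say nothing here of which factor was bound.

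Single promoters show the size of the losses. The start of Zfp72 on chromosome 13 fell from 13.1, 12.7 and 12.2 CPM to 5.14, 6.1 and 4.19, a log2 fold change of -1.31 (SE 0.16). Zfp111 fell from 10.6, 11.4 and 10.3 to 5.07, 4.91 and 4.98 CPM, -1.11 (SE 0.16), and Zfp418 from 24.8, 21.2 and 21.0 to 9.45, 11.3 and 10.3 CPM, -1.10 (SE 0.12). Within each the libraries of a group differed by far less than the groups did. The word did not always go with a loss: Zfp354b held 38.4, 33.3 and 34.4 CPM in controls and 38.5, 33.9 and 35.0 in knockdowns, and Zfp566 rose from 50.4, 42.5 and 44.6 to 58.4, 51.9 and 59.9 CPM, 0.31 (SE 0.10). Zfp143 itself, singled out here after its values were seen, had 29.7, 30.7 and 27.2 CPM in controls and 42.3, 33.9 and 41.9 in knockdowns beside its start, 0.43 (SE 0.11).

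The contrast between promoters with and without the word appeared under each setting tried that made any call. With loess curves 0 of 34 were higher and 26 lower with the word, and 25 of 230 higher and 59 lower without it. With knockdown replicate 2 alone the counts were 0 and 10 against 22 and 11, and leaving out any 1 library gave 0 to 2 higher and 10 to 13 lower with the word. Without the word the same fits gave 36 to 76 higher and 9 to 19 lower, the fewest without control replicate 2. Grouping by title gave no calls on either side, and medians of -0.27 and 0.09.

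**Figure D3:**
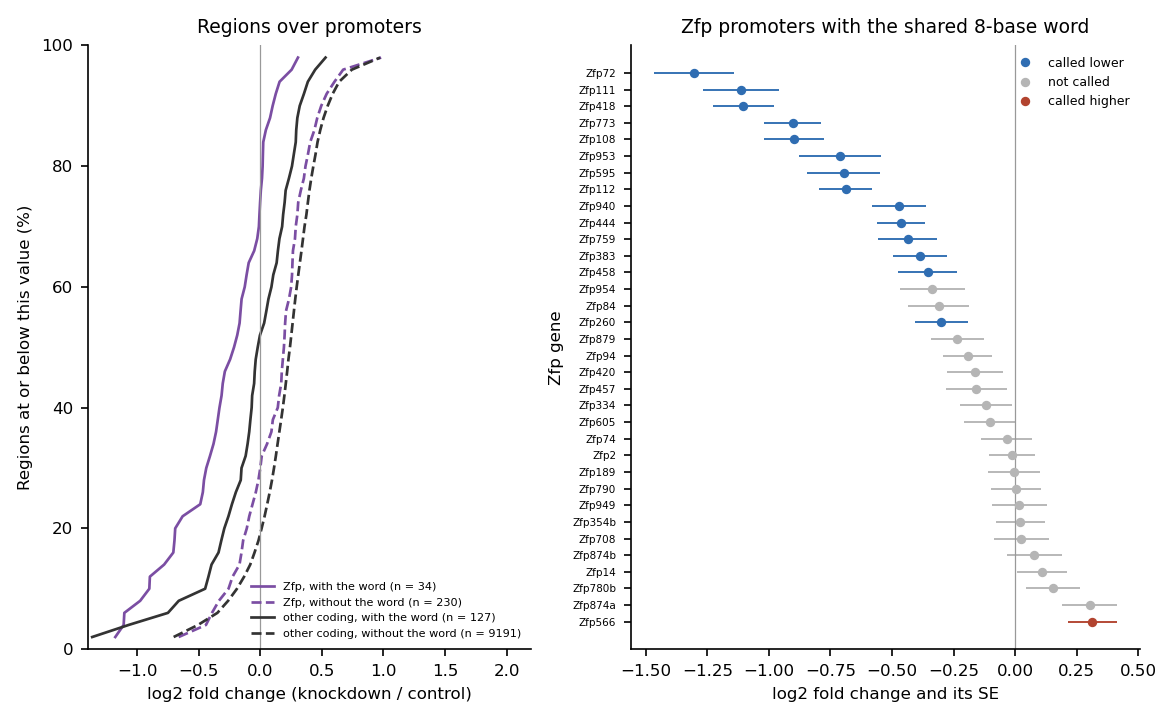
Left, share of promoter regions (y axis, %) at or below each log2 fold change (x axis) for Zfp genes (purple) and other coding genes (black), with the shared 8-base word (solid) or without it (dashed). Right, log2 fold change with its SE for the 34 regions over Zfp promoters with the word, of which 14 were called lower and 1 higher.

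The large clusters held regions that changed in both directions. The cluster from Zfp640 to Zfp273 on chromosome 13 spans 1160 kb and 24 Zfp genes, and of its 43 tested regions 10 were higher and 13 lower; 7 of the lower ones and 5 of the higher ones were at starts. The start of Zfp458 fell from 3.72, 3.28 and 4.17 CPM to 0.907, 1.59 and 1.2, -1.59 (SE 0.26), and a region at a gene end of Zfp493 fell from 15.2, 14.8 and 15.5 to 5.75, 7.69 and 5.91, -1.24 (SE 0.15). Within about the same stretch a weak region 918 bp from Zfp729b rose from 0.912, 0.859 and 1.42 to 2.65, 5.47 and 3.26 CPM, 1.81 (SE 0.30). The lower regions were mostly the open ones and the higher ones mostly weak: no higher region of this cluster exceeded 5.85 CPM in any library.

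In the cluster from Zfp180 to Zfp575 on chromosome 7, 506 kb with 12 genes, 9 of 34 tested regions were higher and 7 lower. The lower ones ran from Zfp112 to Zfp93. The start of Zfp108 fell from 18.2, 17.0 and 17.6 CPM to 9.22, 9.67 and 9.37, -0.90 (SE 0.12), and that of Zfp112 from 40.6, 37.0 and 39.4 to 28, 21.6 and 23.1, -0.69 (SE 0.11). Beside them a region 1018 bp inside Zfp180 rose from 1.9, 2.93 and 1.8 to 8.09, 6.66 and 8.84 CPM, 1.80 (SE 0.22).

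**Figure D4:**
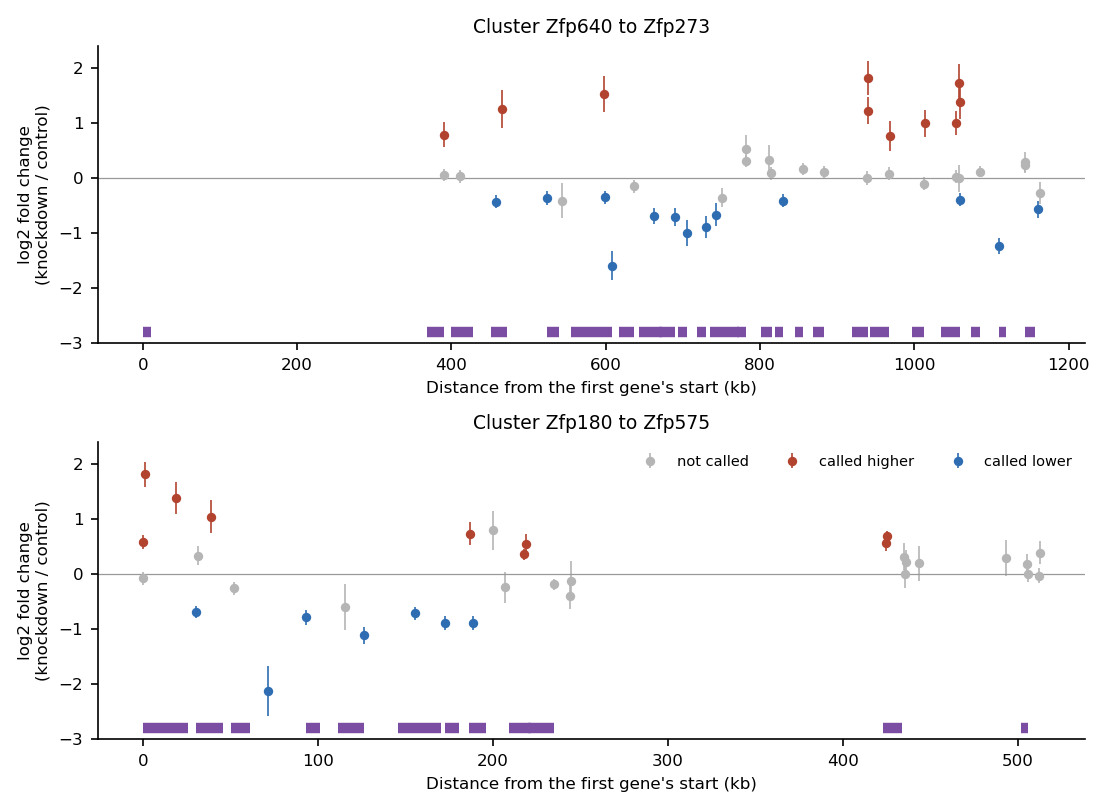
Log2 fold change with its SE (y axis) of each tested region of 2 clusters along the distance from the first gene's start (x axis, kb), red called higher, blue called lower, grey not called, with Zfp genes as purple bars. In the upper cluster 13 regions were lower and 10 higher, and in the lower cluster 7 and 9.

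The other large clusters were also mixed. From Zfp84 to Zfp146 on chromosome 7, 7 of 45 regions were higher and 7 lower; a region inside Zfp790 fell from 18.1, 18.4 and 18.6 CPM to 8.47, 8.64 and 7.64, -1.16 (SE 0.13), while the start of Zfp382 rose from 29.5, 29.3 and 26.6 to 39.5, 35.3 and 41.9, 0.45 (SE 0.10). From Zfp160 to Zfp946 on chromosome 17, 6 of 39 were higher and 5 lower, and from Zfp786 to Zfp467 on chromosome 6, 7 of 38 were higher and 4 lower. Of 35 clusters with a tested region 25 had more higher than lower regions, 4 had more lower, 4 had equal numbers and 2 had no calls. Over all regions 15.4% were higher and 12.7% lower. This tally was made with TMM scaling only, under which clustered genes had 151 higher and 76 lower regions. The numbers were 116 and 123 with loess curves, 121 and 116 scaled to reads in regions, and 62 and 151 scaled to library totals. From Zfp40 to Zfp13 on chromosome 17, 9 of 19 were higher and 0 lower, and from Zfp954 to Zfp772 on chromosome 7, where Zfp418 and Zfp773 lie, 0 of 6 were higher and 3 lower; these examples were picked with their values known.

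**Figure D5:**
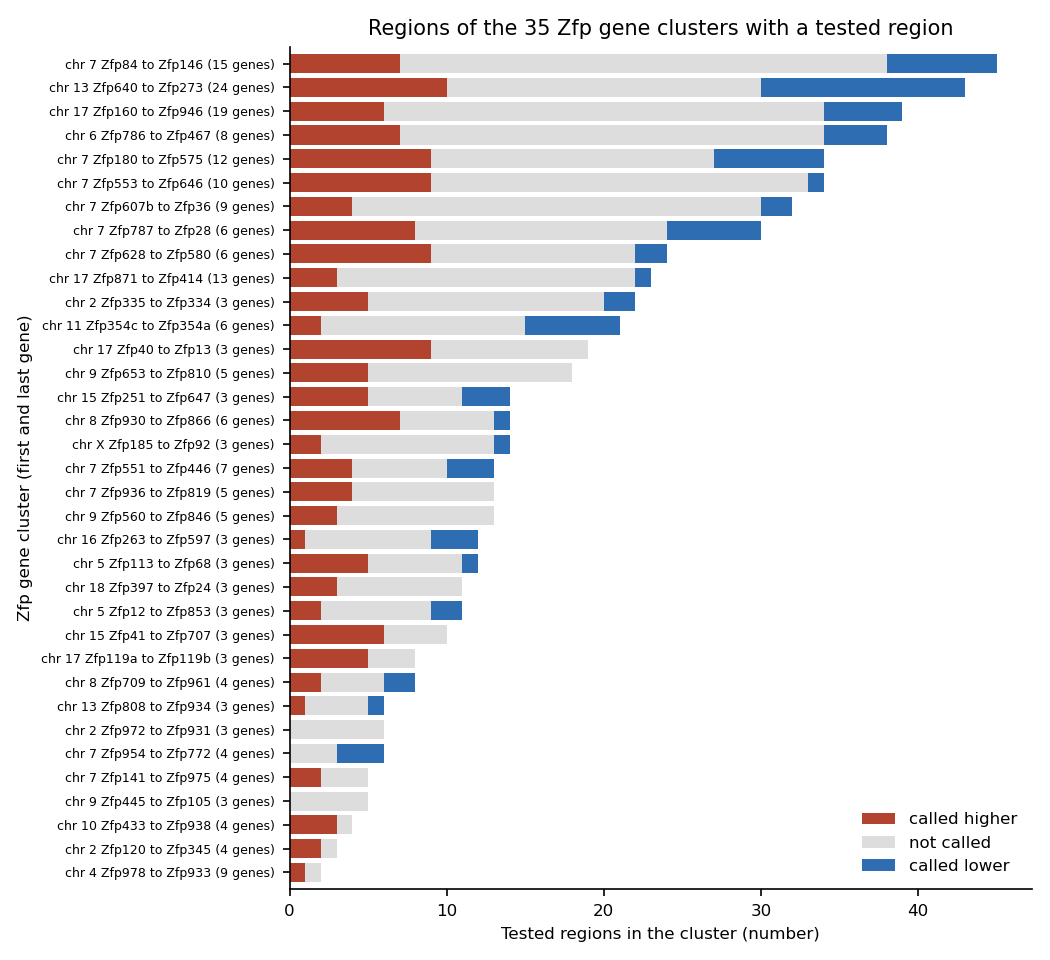
Number of tested regions (x axis) in each of the 35 Zfp gene clusters that had one (y axis, first and last gene), split into called higher (red), not called (grey) and called lower (blue). With TMM scaling the 5 clusters with the most regions all hold both red and blue, and 25 clusters have more red than blue.

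Some large changes at starts came from weakly open regions. The region over the start of Zfp36l1 rose from 1.67, 1.72 and 1.56 CPM to 7.18, 2.85 and 5.85, 1.68 (SE 0.28), with knockdown replicate 2 closest to control. Zfp239 showed both directions: at its listed start 0.684, 0.937 and 1.37 CPM became 3.18, 3.88 and 2.53, 1.63 (SE 0.29), and 883 bp further in 19.6, 20.3 and 18.0 CPM became 7.94, 9.04 and 8.84, -1.16 (SE 0.13).

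Genes grouped by known role gave the following counts. The mRNA decay factors Zfp36, Zfp36l1 and Zfp36l2, which bind AU-rich elements, had 7 higher and 0 lower of 17 regions, where all regions had 15.4% and 12.7%. At the most open region of Zfp36l2 levels were 8.74, 6.99 and 6.68 CPM in controls and 20.1, 8.96 and 15.2 in knockdowns, 1.00 (SE 0.21). At that of Zfp36, which lay 3660 bp from the gene, they were 30.2, 25.7 and 31.2 against 45.9, 37.9 and 40.4, 0.51 (SE 0.11). Neither was called with replicate 2 alone.

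Few regions lay at genes that guard imprints or silence retroelements. Over all regions the shares were 15.4% higher and 12.7% lower. Zfp57 and Zfp445, which keep methylation at imprinted loci, had 1 higher and 0 lower of 7. That one, inside Zfp57, went from 13.1, 11.8 and 11.5 to 15.5, 15.5 and 18.6 CPM, 0.45 (SE 0.13), and was not called with replicate 2 alone or without either control replicate 2 or 3. Zfp809, known for silencing murine leukaemia virus, Zfp568, Zfp932 and Zfp961 had 1 higher (6.25%) and 2 lower (12.5%) of 16. The higher one was inside Zfp932, with 0, 0.273 and 0.189 CPM in controls and 0.983, 0.951 and 1.4 in knockdowns. A region inside Zfp568 fell from 7.52, 7.77 and 6.01 to 3.4, 3.33 and 3.26 CPM, -1.09 (SE 0.19), and one 2699 bp from Zfp961 fell from 1.9, 1.52 and 1.8 to 0.605, 0.713 and 0.532, -1.48 (SE 0.32). Among cofactor genes of the KRAB proteins 48 of 276 regions were higher (17.4%) and 26 lower (9.42%), beside 15.4% and 12.7% of all regions. Their largest gains were at Atf7ip (2.44, SE 0.44) and at Trim28, where 1.22, 2.66 and 1.89 CPM became 7.26, 8.88 and 8.31. Their largest losses were at Uhrf1, from 2.05, 1.64 and 1.66 to 0.983, 0.555 and 0.598 CPM, and at Smarcad1 (-1.26, SE 0.41).

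Regions of genes of neural development and disease were called higher less often than all regions. Of 252, 28 were higher (11.1%) and 35 lower (13.9%), beside 15.4% and 12.7% of all regions. Gene bodies of all coding genes had 11.9% and 13.4%, but the 252 also hold gene ends and flanks. Most of the losses were at Zfp423 (15 of 62 regions, with 6 higher) and Zfp536 (11 of 64, with 5 higher), long genes with many weak regions. At the most open region 6 of the 9 genes that had one were called higher. These regions were picked for openness, and among the most accessible 10% of all regions 39.9% were higher. Zfp292 went from 30, 31.4 and 29.4 to 51.3, 45.7 and 47.9 CPM, 0.67 (SE 0.09), Zfp335, needed by neural progenitors, from 32.7, 26.1 and 25.2 to 46.9, 38.2 and 38.7, 0.57 (SE 0.12), and Zfp804a, a schizophrenia risk gene in humans, from 13.8, 19.6 and 18.2 to 24.4, 25.4 and 25, 0.52 (SE 0.12). The call at the most open region of Zfp423 (0.27, SE 0.10) was lost when any 1 library other than knockdown replicate 2 was left out. For Zfp536, Zfp488 and Zfp513 the groups overlapped. The region of Zfp488 lay 7310 bp from the gene, inside Rbp3, and that of Zfp513 5387 bp away, at a gene end of Eif2b4.

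Among the other roles 21 of 94 regions were higher (22.3%) and 6 lower (6.38%), beside 15.4% and 12.7% of all regions. Zfp365 stood out in size: its start went from 16.9, 18.4 and 15.2 to 37.1, 33.1 and 34.4 CPM, 1.05 (SE 0.11). The repressors and pluripotency genes Zfp281, Zfp217 and Zfp462 had 6 higher (12.8%) and 5 lower (10.6%) of 47. Zfp281 rose at its start from 31.0, 27.3 and 30 to 48.7, 39.5 and 40.2 CPM, 0.54 (SE 0.10), and the most open region of Zfp217 fell from 23.8, 25.6 and 23.8 to 19.1, 19.8 and 13.4, -0.49 (SE 0.13). Zfp42 had no region within 10 kb.

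Other zinc finger genes (Zbtb, Zkscan, Zscan, Klf and Znf symbols, 85 genes) had 144 higher (18.9%) and 91 lower (12%) of 760 regions. Over all regions the shares were 15.4% and 12.7%. Gene ends of these zinc finger genes were lower in 9 of 146 (6.16%), beside 6.92% for all coding genes. Their bodies were higher in 56 of 448 (12.5%), beside 11.9% for all coding genes. Olfactory receptor genes, another clustered family, had 30 higher (15.8%) and 28 lower (14.7%) of 190, with few regions at any gene end (28). All regions had 15.4% and 12.7%.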

How the data were processed

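Open chromatin was measured by ATAC-seq in 6 libraries, 3 control and 3 knockdown by genotype label. The deposited tables give, for the same 193148 regions in each library, whole-number read counts, which the authors made with an unnamed counter. The deposited RPKM values scale those counts to region width and to 1 library total, and served only to recover library totals. The deposited Score, a signal, is the count times 1 factor per library, per the file headers and values, and was not tested. Tools listed without roles in the submitters' processing notes are BWA, MACS2, Picard, SAMtools 1.9, Trimmomatic and FastQC, and the build listed is mm10. Read shifts and duplicate handling are not stated there.

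Counts were tested with edgeR 4.0.16 (limma 3.58.1, R 4.3.3) by its quasi-likelihood test, with TMM scaling, filterByExpr and Benjamini-Hochberg adjustment over 191693 regions; the script was tested on simulated data. SE is the log2 fold change divided by the root of its F. Differences of single libraries used log2(CPM + 0.25). Alternatives were DESeq2 1.42.0, no filter, other scalings, other windows and leaving out libraries. Python 3.11.15, pandas 2.3.3, NumPy 2.4.6 and matplotlib 3.10.9 did the rest.

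Genes were RefSeq protein-coding genes of GRCm38.p6, the same build family as mm10. Named genes are the 10 largest called changes each way, the 10 most open gene ends, the 5 clusters with the most regions, genes of known role at their most open region, and the 2 largest changes each way among cofactors; other genes named at starts, promoters and in clusters were chosen after their values were seen. The members and lists were chosen with earlier results of these data known. For promoters, 32896 words of 8 bases were scanned and 16 letter patterns were tried by hand, and the grouping by ACTACATT was chosen after the data had been seen. Precision is limited by reads: 3 reads are worth 0.117 to 0.238 CPM. Protein sequences were not used here.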

Additional observations from a re-analysis of the deposited data

How the results depend on the processing

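Direction of the members' balance held with DESeq2, no filter, loess curves, each library left out and knockdown replicate 2 alone, but not when scaled to library totals or reads in regions. With DESeq2 145 members were lower, 67 in gene bodies and 84 at single genes. Scaled to library totals, 176 members were higher and 479 lower (median -0.18), with 55 and 108 at gene ends, 82 and 260 in bodies, 39 and 111 in flanks, 62 and 151 at clustered and 114 and 328 at single genes. Scaled to reads in regions, 343 were lower (median -0.0279), 83 at gene ends, 180 in bodies, 116 at clustered and 227 at single genes. With loess curves the median was 0.0189, and 109 gene ends and 123 regions of clustered genes were lower. Loess curves also turned the sign at Zfp78 (-0.32), Zfp687 (-0.0541), Zfp219 (-0.18), Zfp277 (-0.18), Zfp513 (-0.27) and Zfp91 (-0.23). The cause was not tested.

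With knockdown replicate 2 alone against the controls, where the spread comes from the controls and the lone library is assumed to vary like them, 181 members were higher and 102 lower (median 0.028), with 76 and 30 at gene ends, 69 and 51 in bodies, 36 and 21 in flanks, 69 and 41 at clustered and 112 and 61 at single genes. Grouped by title, edgeR called 0 higher and 0 lower in every class (median 0.0377), with 289 members at an unadjusted p under 0.05; DESeq2 was not run on that grouping. Leaving out each library in turn gave 281 to 426 members higher and 133 to 234 lower (median 0.07 to 0.10). By class the ranges were 109 to 166 and 36 to 54 at gene ends, 112 to 170 and 64 to 120 in bodies, 58 to 90 and 33 to 60 in flanks, 96 to 152 and 51 to 79 at clustered genes, and 185 to 274 and 82 to 155 at single genes. With gene bounds extended by 50000 bp, 750 were higher and 463 lower, 415 and 291 of them in flanks, since more regions then count. The promoter counts were run under the settings that change the fit, as alternatives added after the data were seen. No paired analysis was run, because the labels state no pairing. They number the controls 1, 3 and 5 and the knockdowns 2, 4 and 6, so the groups share no number. Weak regions set the limit of depth, since the largest gains start from 9 to 12 control reads.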
